A study of Mus musculus with 18 samples.

Results

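The respiratory chain genes described here were the protein-coding genes with symbols of the Nduf, Sdha to Sdhd, Uqcr, Cox4i to Cox8, Atp5, mt-Nd, mt-Co, mt-Atp and mt-Cytb families, without Ndufa11, which lies near Sh3gl1. They numbered 109 of the 51912 genes in the table, 96 encoded in the nucleus and 13 encoded in the mitochondrial genome. Of the nuclear genes, 83 encode subunits (35 of complex I, 4 of complex II, 8 of complex III, 20 of complex IV and 16 of complex V), 12 encode assembly factors (8 Ndufaf and 4 Sdhaf genes) and the last is Atp5s, a coupling factor. The mitochondrial genes are 7 of complex I, mt-Cytb of complex III, 3 of complex IV and 2 of complex V. Cytochrome c1 (Cyc1) has no symbol of these families and was not taken. None of the 109 genes (0) lies within 5 Mb of Sh3gl1.

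RNA was sequenced from 18 libraries of B cells of C57BL/6 mice, 3 libraries in each of 6 groups. The study names 3 mice of each genotype, so same-numbered libraries of different cell states may come from the same mouse. The main tests did not pair them. Transitional B cells, follicular B cells and follicular B cells cultured with CD40L (14 h in the series text, while the study's own text gives the time differently) each came from WT mice and from Sh3gl1-/- mice, which lack endophilin A2, a membrane-bending protein of endocytosis. The transitional and follicular cells were purified by flow cytometric sorting and not treated further, and the series describes the replicates as littermates; ages were not given in the sources used here. The knockout was in the germline, so every other cell of those mice lacked the gene too.

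The respiratory chain is a row of protein complexes in the inner mitochondrial membrane: complexes I and II feed electrons from NADH and succinate to coenzyme Q, complex III passes them to cytochrome c, complex IV passes them to oxygen, and complex V (ATP synthase) uses the proton gradient to make ATP. Most subunits are encoded in the nucleus and imported, while a few hydrophobic core subunits are transcribed from mitochondrial DNA by a separate polymerase and translated inside the organelle, so each complex other than II needs both genomes. Resting B cells are small and quiescent, and CD40L, the T-cell signal through CD40, makes them grow before they divide.

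Library totals ran from 12404665 to 18366011 counts. Sh3gl1 was measured at 29.7 to 57.9 CPM (counts scaled by library size and TMM factor) in the 9 WT libraries and at 0.0715 to 1.76 in the 9 Sh3gl1-/- libraries, so all 18 matched their labels. The summed CPM of 6 B cell markers lay between 8303 and 18289 in every library. Markers of other cells were present: the summed CPM of 5 erythroid markers was 2270 to 3959 in WT and 4427 to 9486 in Sh3gl1-/- transitional libraries, 1428 to 3852 and 2989 to 9324 in the follicular libraries, and 5.52 to 358 and 30.2 to 114 after CD40L culture. The 4 plasma cell markers summed to 428 to 669 CPM in WT and 1085 to 4563 CPM in Sh3gl1-/- transitional libraries. Most of that sum was Jchain, at 648, 585 and 406 CPM in WT and 2772, 1065 and 4514 CPM in Sh3gl1-/- libraries. The other plasma cell markers, Sdc1, Prdm1 and Xbp1, overlapped between these genotypes. In these bulk samples fewer cells of a type and less RNA per cell cannot be told apart.

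The sequences of the members bear on the values in 2 ways. First, chromosome 1 holds a copied stretch of mitochondrial DNA (GRCm38, chr1:24611535-24616197, minus strand) annotated as 7 unprocessed pseudogenes of mt-Nd4, mt-Nd4l, mt-Nd3, mt-Co3, mt-Atp6, mt-Co2 and mt-Co1. The pseudogene of mt-Co3 (chrM:8607-9390) did not differ from it at any of 783 aligned bases, as this window of 60 bases from position 362 of the gene shows.

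mt-Co3: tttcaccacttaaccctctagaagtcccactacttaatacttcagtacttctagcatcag
Gm28437: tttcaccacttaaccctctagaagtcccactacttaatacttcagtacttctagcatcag

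The pseudogene of mt-Nd3 (chrM:9459-9806) differed at 1 of 345 bases, T3C counted from 1 at the first base of the gene, and the capital in these first 60 bases marks it.

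mt-Nd3: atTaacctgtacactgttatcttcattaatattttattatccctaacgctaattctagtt
Gm28438: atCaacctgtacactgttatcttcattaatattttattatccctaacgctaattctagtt

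The pseudogene of mt-Co1 (chrM:5328-6872) covered its last 492 bases with 6 differences (T1056A, C1057T, A1059G, A1060G, C1062A and A1066T), all within the window from position 1054 and in capitals here.

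mt-Co1: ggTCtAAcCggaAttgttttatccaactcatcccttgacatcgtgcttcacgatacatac
Gm29216: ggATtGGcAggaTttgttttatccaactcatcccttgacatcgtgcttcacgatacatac

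Reads from such stretches have 2 places to go, and how the counting shared them was visible in the table. Of the counts given to gene and copy together, the copy held 83.3% for mt-Atp6, 79.4% for mt-Co3, 62.1% for mt-Nd4l, 57.4% for mt-Co2, 24.1% for mt-Co1, 14.1% for mt-Nd3 and 0% for mt-Nd4. The split also varied between libraries: mt-Co3 alone was counted at 407, 95.9 and 1031 CPM in the 3 WT transitional libraries, where gene plus copy gave 2221, 2135 and 2550 CPM. The values of mt-Atp6, mt-Co3, mt-Nd4l and mt-Co2 as deposited are therefore uncertain, and counts, medians and calls that include them are given also with the copies added. The genes mt-Atp8 and mt-Atp6 and the genes mt-Nd4l and mt-Nd4 overlap each other on the same strand, and mt-Nd6 overlaps the end of mt-Nd5 on the opposite strand. The library kit was stranded by the labels, and whether the counting used strand is not given in the sources used here.

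**Figure D1:**
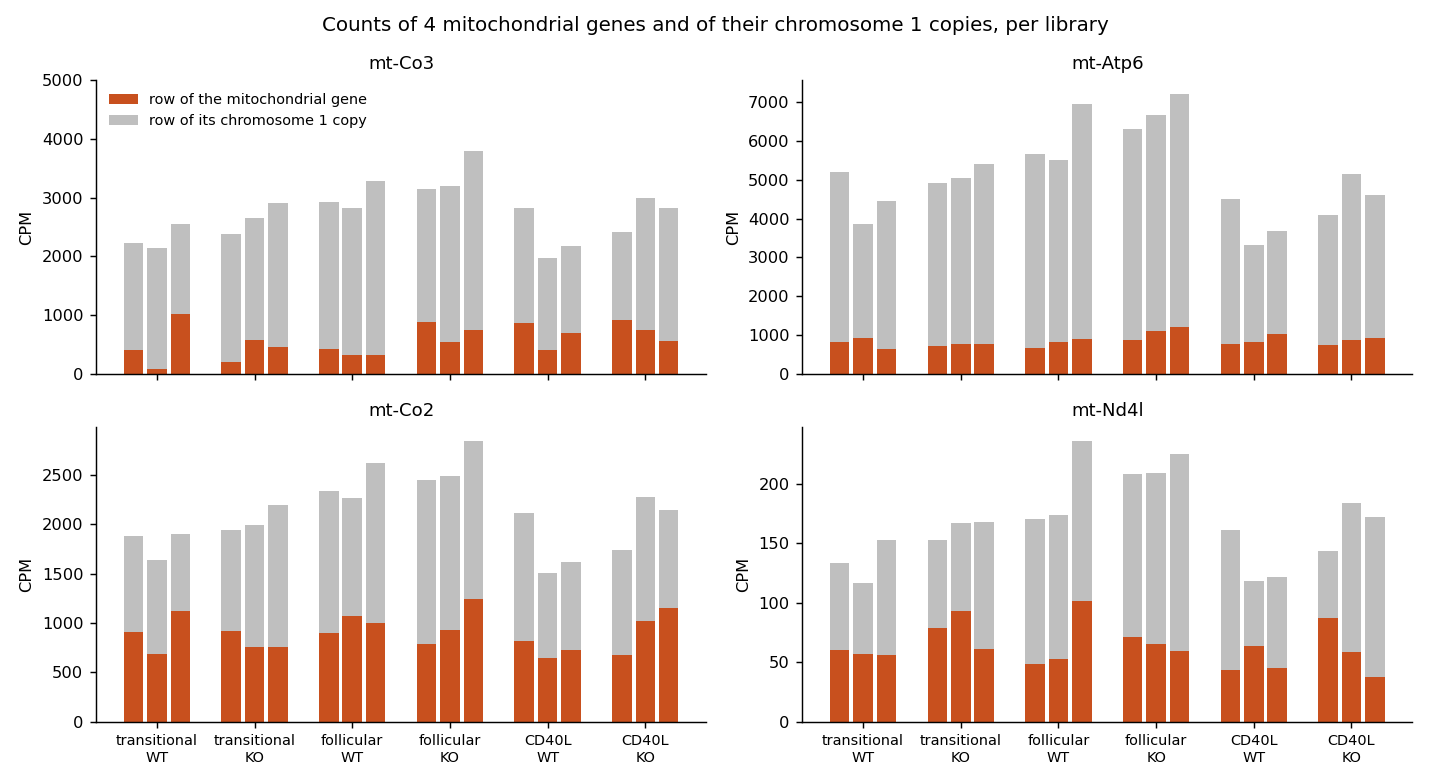
CPM (y axis, linear, from 0) of mt-Co3, mt-Atp6, mt-Co2 and mt-Nd4l in each of the 18 libraries, stacked with the CPM of the chromosome 1 copy; each bar is a library and the bars are grouped by cell state and genotype. For mt-Co3 the coloured part swings from 95.9 to 1031 within WT transitional cells, while the whole bar stays between 2135 and 2550.

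Second, some nuclear members carry promoters with binding motifs of factors known to act on mitochondrial genes. These are nuclear respiratory factor 1 (NRF1), the ETS factor GABPA (letters CCGGAAG) and YY1. RefSeq promoter windows of GRCm38.p6, from 250 bases before to 50 bases after the start, matched 77 of the 96 nuclear members with 82 windows of 300 bases. Both strands were searched for exact letters. At least 1 of these motifs was in 29 of the 82 windows. The NRF1 motif of 10 letters was in 6 windows (7.32%), against 0.971% of all 32851 windows; the ETS motif of 7 letters was in 21 (25.6%), against 8.86%; and the YY1 motif of 10 letters was in 6 (7.32%), against 0.852%. The 75 windows of mitochondrial ribosomal proteins held them at 4.0, 34.7 and 6.67%, the ETS share being above that of the chain members. In 4 windows more than 1 kind of motif was present, and these are printed 5′ to 3′ with the motifs in capitals; none overlaps another. Atp5k encodes a membrane subunit of ATP synthase (chr5:108434350-108434649, minus strand, NRF1 then ETS on the reverse strand) and Cox6a1 a subunit of complex IV (chr5:115348909-115349208, minus strand, in the same order). Atp5j encodes a stalk subunit of ATP synthase (chr16:84834927-84835226, minus strand, YY1 then ETS) and Ndufaf8 a complex I assembly factor (chr11:120098684-120098983, plus strand, ETS then YY1).

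Atp5k: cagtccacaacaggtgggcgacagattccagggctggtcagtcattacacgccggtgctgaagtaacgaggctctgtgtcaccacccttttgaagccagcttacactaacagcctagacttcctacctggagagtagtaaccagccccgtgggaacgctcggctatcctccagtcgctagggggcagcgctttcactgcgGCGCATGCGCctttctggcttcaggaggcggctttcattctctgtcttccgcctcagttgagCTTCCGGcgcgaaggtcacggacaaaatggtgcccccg
Cox6a1: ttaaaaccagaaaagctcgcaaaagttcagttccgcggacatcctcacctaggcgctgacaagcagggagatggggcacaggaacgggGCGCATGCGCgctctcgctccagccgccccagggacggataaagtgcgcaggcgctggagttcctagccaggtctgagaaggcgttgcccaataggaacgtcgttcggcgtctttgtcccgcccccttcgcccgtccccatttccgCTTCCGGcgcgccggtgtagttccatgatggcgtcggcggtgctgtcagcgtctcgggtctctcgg
Atp5j: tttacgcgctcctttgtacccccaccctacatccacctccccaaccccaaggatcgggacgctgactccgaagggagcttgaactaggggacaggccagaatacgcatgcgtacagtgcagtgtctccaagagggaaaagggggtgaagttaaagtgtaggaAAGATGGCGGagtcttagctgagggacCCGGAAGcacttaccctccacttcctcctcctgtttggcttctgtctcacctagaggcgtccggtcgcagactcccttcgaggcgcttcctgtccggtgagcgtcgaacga
Ndufaf8: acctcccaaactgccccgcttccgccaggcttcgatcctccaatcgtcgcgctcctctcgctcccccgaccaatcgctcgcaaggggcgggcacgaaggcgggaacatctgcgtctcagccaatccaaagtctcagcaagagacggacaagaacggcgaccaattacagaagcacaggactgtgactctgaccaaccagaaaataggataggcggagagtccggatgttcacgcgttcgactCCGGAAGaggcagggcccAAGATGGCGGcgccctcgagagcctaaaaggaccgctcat

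Levels per length are given as TPM (transcript share scaled by length), the mean over the 18 libraries. Most nuclear subunits were measured well above 0, with 6 under 1 TPM, and the mitochondrial genes were higher per gene by their median. The 83 nuclear subunits had a median of 252 TPM and the 13 mitochondrial genes 1141 TPM, from mt-Nd3 at 169 to mt-Atp8 at 9244. The 12 assembly factors had a median of 31.8 TPM. By complex the nuclear medians were 197 (I), 187 (II), 395 (III), 200 (IV) and 316 TPM (V), and the highest members were Ndufa3 (626 TPM), Sdhb (307 TPM, the iron-sulfur subunit of succinate dehydrogenase), Uqcrh (652 TPM, the hinge protein of complex III), Cox4i1 (773 TPM) and Atp5e (651 TPM, the epsilon subunit of ATP synthase). At the low end Uqcrfs1, which encodes the Rieske iron-sulfur protein of complex III, stood at 8.96 TPM.

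Where complex IV has tissue isoforms, B cells used the ubiquitous form. Cox4i1 had 773 TPM against 0.224 for Cox4i2, the form of lung. Cox6a1 had 386 TPM against 2.28 for Cox6a2, the heart and muscle form, and Cox6b1 had 616 TPM against 3.0 for Cox6b2, the testis form. Cox7a2 and Cox7a2l, the latter a factor that ties complexes into supercomplexes, had 282 and 301 TPM against 0.974 for the muscle form Cox7a1. Cox8a had 262 TPM, while Cox8b, Cox8c and Cox7b2 had 0 counts in all libraries. Ndufa4, counted here with complex IV, had 510 TPM against 0.052 for its hypoxia-linked paralog Ndufa4l2. The 3 genes of the identical c-ring subunit of ATP synthase differed: Atp5g1 had 428 TPM, Atp5g3 285 and Atp5g2 28.9. The isoforms Cox4i2, Cox7a1 and Ndufa4l2 and the 3 genes at 0 counts did not pass the filter on low counts, which left 90 nuclear members for the tests that involve CD40L or compare the ex vivo states, 89 for the genotype test in transitional cells and 88 in follicular cells. All 13 mitochondrial genes passed in every test.

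The 2 genomes moved in opposite directions between ex vivo follicular and CD40L-cultured cells. No group was cultured without CD40L, so CD40L and the time in culture cannot be told apart. A rise, fall or response with CD40L, here and below, means cultured against ex vivo follicular cells. Summed over the 96 nuclear members, the share of all TPM was 2.03, 1.93 and 1.94% in WT follicular cells and 2.85, 2.79 and 2.83% in WT CD40L-cultured cells. For the 13 mitochondrial genes the share was 3.02, 2.96 and 3.56% in WT follicular cells and 2.20, 1.71 and 1.88% after culture. Neither pair of groups overlapped, with a ratio of means of 1.43 for the nuclear and 0.606 for the mitochondrial share. In Sh3gl1-/- cells the nuclear share was 1.97, 1.83 and 1.98% before and 2.74, 2.73 and 2.51% after culture (ratio 1.38), and the mitochondrial share was 3.24, 3.47 and 3.57% before and 2.09, 2.64 and 2.48% after (ratio 0.703). Again neither pair overlapped. These shares are descriptions of each library and carry no test.

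**Figure D2:**
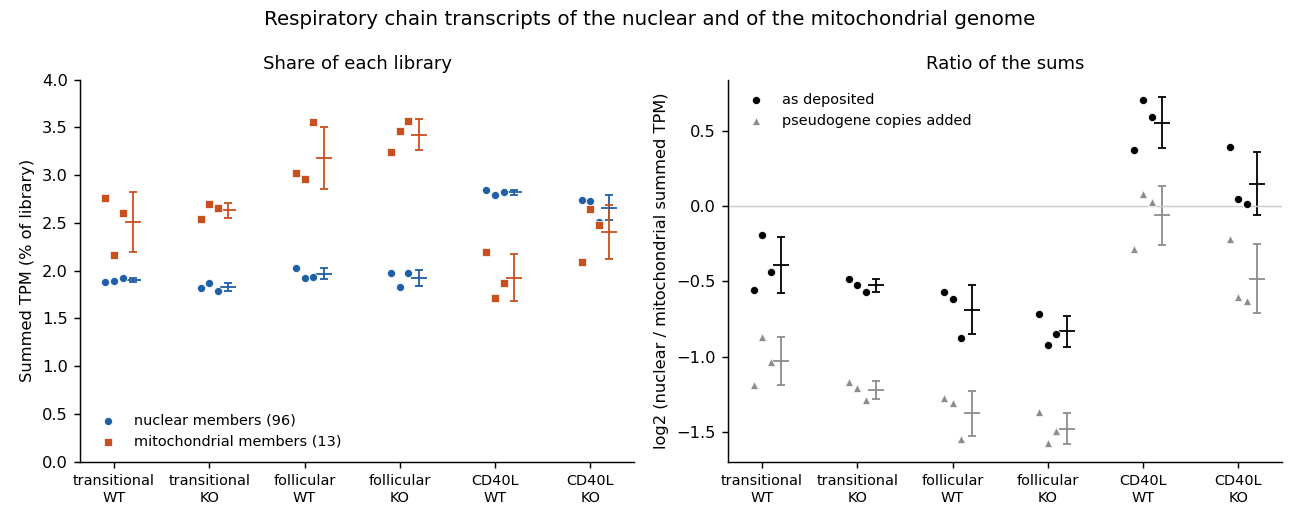
Left, summed TPM of the 96 nuclear and 13 mitochondrial members as a percent of each library; right, log2 of their ratio as deposited and with the pseudogene copies added. Points are libraries, lines are means with SD bars (n = 3). As deposited, the nuclear share was the smaller in all ex vivo libraries and the larger in all 6 CD40L-cultured libraries. With the copies added, the nuclear to mitochondrial ratio in cultured libraries was 0.821, 1.06 and 1.02 in WT and 0.862, 0.659 and 0.648 in Sh3gl1-/- cells.

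By summed TPM as deposited, the order of the 2 sums turned over. The mean nuclear to mitochondrial ratio was 0.766 in WT and 0.694 in Sh3gl1-/- transitional cells, 0.623 and 0.563 in follicular cells, and 1.48 and 1.12 in CD40L-cultured cells. On the log2 scale the ratio rose with CD40L by 1.25 in WT and 0.98 in Sh3gl1-/- cells, without overlap. With the pseudogene copies added the same differences were 1.32 and 1.0, but the mitochondrial sums were larger, so that the mean log2 ratio after culture was -0.06 in WT and -0.48 in Sh3gl1-/- cells: which sum was larger in cultured cells depended on the copies, while the difference did not. It depended on the measure too. By share of counts the nuclear sum was the smaller in every ex vivo library, but also in Sh3gl1-/- cultured replicate 2 (1.54 against 1.63%). The mitochondrial TPM sum includes mt-Atp8, at a mean of 9244 TPM, and sums without that gene are not given. Between the ex vivo states the log2 ratio was lower in follicular than in transitional cells in both genotypes, with a difference of -0.30 in each and no overlap. Between genotypes the ratio overlapped in every state, with log2 differences (Sh3gl1-/- minus WT) of -0.13 in transitional, -0.14 in follicular and -0.41 in CD40L-cultured cells. The erythroid markers, whose values stand above, also summed lower without overlap in cultured than in follicular libraries of each genotype. So did the 5 T cell markers (WT 46.1 to 67.3 against 6.55 to 10.3 CPM) and the 5 macrophage or monocyte markers (WT 109.8 to 140.2 against 66.1 to 96.3 CPM). Within the last sum Lyz2, Csf1r and C1qa were lower in WT cultured libraries, while Adgre1 and Cd68 were higher. Adgre1 had 5.05, 9.44 and 8.80 CPM in WT follicular and 43.4, 78.4 and 70.0 CPM in WT cultured libraries. The part of all these markers in the shares was not tested.

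Gene by gene, most nuclear members rose with CD40L in WT cells and none was called lower. The threshold for a call was an edgeR adjusted p of 0.05, by Benjamini-Hochberg over all genes tested, of which 49.3% passed. Of the 90 nuclear members 76 were called higher and 0 lower, where 23.6% of all genes tested were called higher and 25.7% lower. Their median log2 fold change was 0.72, against -0.08 over all genes tested, and 73 were higher in all 3 cultured than in all 3 follicular libraries (26.9% of all genes). Among the mitochondrial genes 1 was called higher and 7 lower, the median was -0.65, and 8 were lower without overlap (29.6% of all genes).

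The nuclear rise ran through every complex. In ATP synthase all 16 subunits were called higher with a median log2 fold change of 0.85; in complex II all 4, median 0.70; in complex III 6 of 8, median 0.84; in complex I 30 of 35, median 0.65; in complex IV 10 of 14 tested, median 0.59; and among the assembly factors 9 of 12, median 0.55. The 78 mitochondrial ribosomal proteins, which build the ribosome that translates the 13 mitochondrial messages, are the nearest other family: 67 were called higher with a median of 0.72. No value here sets the respiratory chain members apart from that family.

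**Figure D3:**
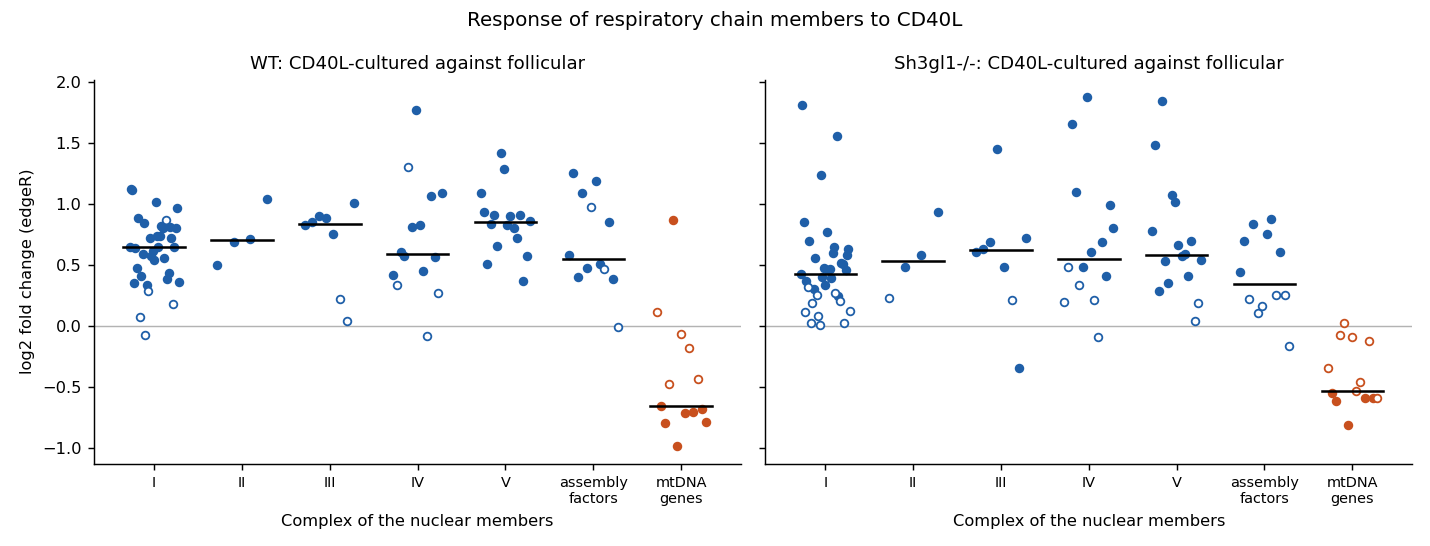
log2 fold change of CD40L-cultured against follicular cells (edgeR) for each tested subunit and assembly factor, by complex for nuclear members and pooled for mitochondrial genes (mtDNA); left WT, right Sh3gl1-/-. Filled points were called at an adjusted p under 0.05, open points were not, and black lines are medians; the nuclear medians lie above 0 in every column and the mitochondrial medians at -0.65 and -0.53.

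The lowest adjusted p among nuclear members was that of Atp5g1 (chr11:96068852-96075670), a gene of the c ring that turns in ATP synthase. It was measured at 147, 133 and 150.3 CPM in WT follicular and 376, 369.8 and 425 CPM in WT cultured cells, and at 148, 128 and 154 CPM before and 325, 307 and 289 CPM after culture in Sh3gl1-/- cells. Cultured libraries of both genotypes lay above all ex vivo libraries. The log2 fold change was 1.42 ± 0.10 (SE, n = 3, edgeR adjusted p = 1.46e-07), a fold of 2.67, and 1.36 when the counts of its pseudogene, 14.8% of both, were added. Copies also took counts of Ndufb4 (76.2% of gene and copies) and Ndufs5 (53.9%), 2 complex I subunits, whose log2 fold changes with copies added were 0.55 and 0.79. For Atp5l and Cox7a2l the copies held 24.1 and 14.7%, so their values as deposited leave out that part. The other genes of the Atp5g1 protein rose as well, Atp5g2 by 1.29 ± 0.32 and Atp5g3 by 0.83 ± 0.10 on the log2 scale.

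Ndufa12, an accessory subunit of complex I, had 121, 115 and 116 CPM in WT follicular and 252, 241 and 284 CPM in WT cultured cells, a fold of 2.16 (edgeR adjusted p = 1.20e-06). Ndufa4 had 160.4, 146 and 148 CPM before and 359, 290.4 and 337 CPM after, a fold of 2.13 (edgeR adjusted p = 5.77e-06). Neither gene's groups overlapped. Uqcrq, a small subunit of complex III, rose 2.02-fold (edgeR adjusted p = 4.75e-06) and Ndufv2, an iron-sulfur subunit of the NADH-binding arm of complex I, rose 1.96-fold (edgeR adjusted p = 3.995e-06).

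Of the 9 nuclear subunits that hold iron-sulfur clusters or haem, 7 rose; the mitochondrial haem subunits, mt-Cytb and mt-Co1, fell and are described with their genome. In complex I the log2 fold changes were 0.97 for Ndufv2, 0.81 for Ndufv1, 0.65 for Ndufs8 and 0.56 for Ndufs1, all called, while Ndufs7 stood at 0.18 ± 0.09 (edgeR adjusted p = 0.106). In complex II they were 0.69 for Sdhb, 0.71 for Sdhc and 1.04 for Sdhd, all called. Uqcrfs1 had 12.4, 7.41 and 9.32 CPM before and 15.1, 10.4 and 9.296 CPM after culture. Its groups overlapped and it was not called (edgeR adjusted p = 0.499).

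Members that were tested and not called in WT numbered 14. They included Uqcrh, at 251.1, 250.4 and 280.5 CPM before and 300.3, 239 and 282 CPM after (log2 0.04 ± 0.12), Cox7a2l (-0.08 ± 0.10) and Cox8a (0.27 ± 0.23). Others were Ndufa6, Ndufab1, Ndufb11 and Ndufs7 of complex I, Cox5a and Cox6a2 of complex IV, Uqcrfs1, and the assembly factors Ndufaf6, Sdhaf1 and Sdhaf4. Among the isoforms, Cox4i1 rose by 0.42, Cox6a1 by 0.58, Cox6b1 by 0.81 and Cox7a2 by 0.45 on the log2 scale, and the low Cox6b2 rose from 0.370 to 0.827 CPM before to 1.67 to 2.90 CPM after culture. Of the promoter windows, those with an NRF1 motif were 6 of the 68 windows of called genes and 0 of the 11 windows of genes tested and not called; the ETS motif was in 18 and 3, and the YY1 motif in 5 and 1.

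The mitochondrial genes were more uneven. mt-Cytb, the only mitochondrial gene of complex III, had 5449, 4959 and 6541 CPM in WT follicular and 3571, 2448 and 2725 CPM in WT cultured cells. All cultured libraries lay below all follicular ones, with a log2 fold change of -0.98 ± 0.14 (SE, n = 3, edgeR adjusted p = 5.17e-05), a fold of 0.506. mt-Co1, the catalytic subunit of complex IV, fell by 0.79, mt-Nd6 by 0.78, mt-Nd2 by 0.71, mt-Nd4 by 0.70, mt-Nd5 by 0.67 and mt-Atp8 by 0.65 on the log2 scale.

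mt-Nd1, the first messenger gene of the heavy strand after the ribosomal RNAs, was an exception. It had 1754, 1700 and 2321 CPM before and 2189, 1615 and 1836 CPM after culture, so the groups overlapped, and its log2 fold change was -0.06 ± 0.14 (edgeR adjusted p = 0.733). The gene mt-Nd1 has no chromosome 1 copy.

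For mt-Co3 the copy decided the direction. As deposited it was called higher, at 0.87 ± 0.25 (edgeR adjusted p = 0.0104) with overlapping groups. With the copy added, mt-Co3 had 2923, 2827 and 3288 CPM before and 2826, 1965 and 2182 CPM after culture, and the log2 fold change was -0.40 ± 0.13 (edgeR adjusted p = 0.0189). With copies added, mt-Atp6 went from 0.11 to -0.68, mt-Co2 from -0.47 to -0.49 and mt-Nd4l from -0.43 to -0.56, all 3 then called lower. In that form 11 of 13 mitochondrial genes were called lower and 0 higher in WT cells, all 13 differences were negative and the median was -0.67. The exceptions were mt-Nd1 and mt-Nd3.

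**Figure D4:**
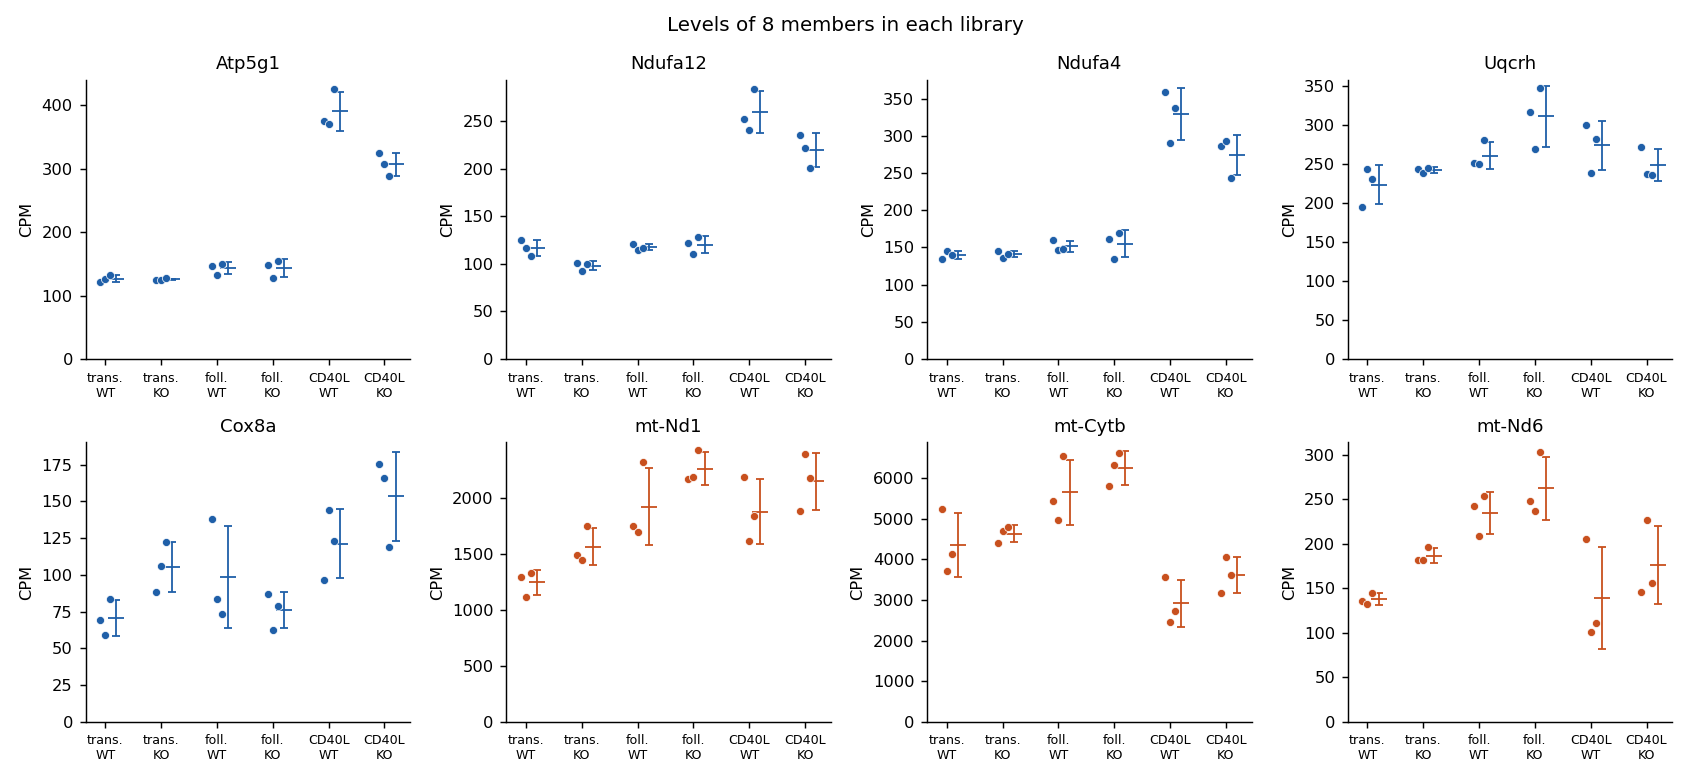
CPM (linear axes from 0) of 5 nuclear members (blue) and 3 mitochondrial genes (orange) in each library. Points are libraries and bars are the mean ± SD (n = 3). Atp5g1, Ndufa12 and Ndufa4 separate cultured from ex vivo libraries, Uqcrh and mt-Nd1 do not, and mt-Cytb is lower in cultured than in follicular libraries.

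In Sh3gl1-/- cells the response had the same shape and a smaller nuclear median. Of 90 nuclear members 63 were called higher (20.6% of all genes tested) and 1, Uqcrh, lower (21.8%; 42.4% in either direction), with a median of 0.49 against -0.03 over all genes. Uqcrh went from 316, 269 and 347 CPM to 272, 237 and 236 CPM, a log2 fold change of -0.34 ± 0.12 (edgeR adjusted p = 0.0321) although the groups overlapped. That call was lost without WT follicular replicate 1 (-0.32) or 2 (-0.31), Sh3gl1-/- follicular replicate 1 (-0.33) or 3 (-0.24), or Sh3gl1-/- cultured replicate 2 (-0.30) or 3 (-0.27). Called higher were 24 of 35 subunits of complex I, 3 of 4 of complex II, 6 of 8 of complex III, 9 of 14 tested of complex IV, 14 of 16 of ATP synthase and 6 of 12 assembly factors. The mitochondrial genes had 0 called higher and 5 lower (mt-Cytb -0.81, mt-Co1 -0.61, mt-Nd4 -0.59, mt-Nd5 -0.59 and mt-Atp8 -0.55), with a median of -0.53, and 7 lower with the copies added, where the median was -0.55. The 0 calls stood beside 8 mitochondrial genes at an unadjusted p under 0.05, all of them lower, and DESeq2 called 0 higher and 7 lower. Without overlap 70 nuclear members were higher (26.2% of all genes) and 6 mitochondrial genes lower (27%).

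Whether the response differed between genotypes was tested directly, as the difference of the responses in the same fit. No member was called (0; 0% of all genes were), with 17 nuclear and 1 mitochondrial gene at an unadjusted p under 0.05, and DESeq2 also called 0 members. The direction was shared by most nuclear members: the response of 76 of 90 was smaller in Sh3gl1-/- cells, with a median difference of -0.22 on the log2 scale against 0.01 over all genes. Among the mitochondrial ribosomal proteins 67 of 78 lay in that direction, with a median of -0.23. For the mitochondrial genes 9 of 13 differences were positive, with a median of 0.12, and with the copies added 11 of 13, again with a median of 0.12. As deposited that median was -0.04 without Sh3gl1-/- cultured replicate 2, 0.00 without WT follicular replicate 3 or WT cultured replicate 2, and 0.33 without WT cultured replicate 1, so its sign depended on single libraries.

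Some nuclear members went the other way. Larger responses in Sh3gl1-/- cells were measured for Cox5b (difference 1.05 ± 0.34), Atp5d (1.01 ± 0.42), Cox8a (0.72 ± 0.32), Ndufa10 (0.70 ± 0.26), Atp5b (0.55 ± 0.27) and Cox6a1 (0.52 ± 0.26), none called (edgeR adjusted p from 0.465 to 0.578). These genes were singled out after their values were seen. Cox8a had 138, 83.8 and 73.6 CPM in WT follicular, 86.7, 62.7 and 78.7 CPM in Sh3gl1-/- follicular, 96.8, 144 and 123 CPM in WT cultured and 176, 166 and 119 CPM in Sh3gl1-/- cultured cells. Cox5b, another complex IV subunit, had 77.1, 39.5 and 40.6, then 37.9, 31.0 and 34.1, then 68.3, 100.4 and 76.1, then 127, 118 and 84.0 CPM in the same order. The same library was the highest of its 3 for both genes in every group.

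That order of libraries was shared more widely. Among the 84 nuclear members with a mean of at least 10 CPM, 7 ranked the 3 mice as Cox8a did in at least 5 of the 6 groups: Cox8a itself, Cox6a1 and Atp5b (the beta subunit of ATP synthase) in all 6, and Cox5b, Ndufa10, Ndufaf8 and Ndufb2 in 5. That is 8.33% of those members, where 41 of 8304 genes of such a level (0.494%) did so, and 0 of 13 mitochondrial genes. Cox8a was chosen as the reference after its values were seen, and it is counted among the 7. Cox5b, Ndufa10, Atp5b and Cox6a1 had also been singled out above, so these shares are not a test. Within WT follicular cells the spread along that order was wide, with Atp5b at 246, 162 and 157 CPM, whereas Atp5g1 and Ndufa12 had no such step. Replicate 1 was the highest WT follicular library for all 7. What sets the order was not tested.

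Between the ex vivo states the nuclear members stayed near level while the mitochondrial genes were higher in follicular cells. In WT mice 7 nuclear members were called higher and 8 lower in follicular than in transitional cells, where 11.7 and 14.2% of all genes were (25.9% in either direction), and the median log2 difference was 0.10 against 0.03 over all genes. Of the mitochondrial genes 8 of 13 were called higher and 0 lower, with a median of 0.44 (0.29 without WT follicular replicate 3), and with the copies added 12 were called higher with a median of 0.53. Without overlap 25 nuclear members were higher (19.9% of all genes) and 14 lower (20.9%). The sums of other cells' markers fell as well in WT, plasma cell markers from 428 to 669 CPM in transitional to 64.0 to 128 CPM in follicular libraries and macrophage or monocyte markers from 422 to 524 to 109.8 to 140.2 CPM, and in Sh3gl1-/- mice from 1085 to 4563 to 143 to 177 CPM and from 379.6 to 667 to 113 to 257 CPM; their part was not tested. Among the plasma cell markers only Jchain fell without overlap in each genotype. The count of all members called was 23, and 14 without WT follicular replicate 1 and 15 without WT transitional replicate 2.

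The 8 nuclear members called lower came from complexes I, II and V and the assembly factors. Atp5a1, the alpha subunit and the only one of 16 ATP synthase subunits called, had 529, 579.6 and 575 CPM in transitional and 388, 437 and 404 CPM in follicular WT cells, a log2 difference of -0.45 ± 0.07 (SE, n = 3, edgeR adjusted p = 0.000559) without overlap. Ndufs1, the largest subunit of complex I, differed by -0.44, Sdha, the flavoprotein of succinate dehydrogenase, by -0.40, Sdhb by -0.28 and Sdhaf2, which helps attach the flavin to Sdha, by -0.38. Ndufs8 (-0.28), Ndufa9 (-0.23) and Ndufaf7 (-0.47) were also called lower. Complex II sits in the tricarboxylic acid cycle as well, and in the list of 18 other genes of that cycle 8 were called lower and 0 higher.

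Those called higher were Ndufs7 (0.35), Ndufa3 (0.23) and Ndufab1 (0.50) of complex I, Uqcrb of complex III (0.36), Cox7c of complex IV (0.36), Sdhaf1 (1.28, from 0.447 to 1.502 CPM in transitional to 2.14 to 2.28 CPM in follicular cells) and Atp5s (0.69). The calls of Sdhaf1 and Ndufa3 were weak: leaving out a single library ended that of Sdhaf1 in 11 of 12 cases, with 0.95 without WT transitional replicate 2, and that of Ndufa3 in 9 of 12. For Cox7c the 3 libraries went from 122, 121 and 121 to 164, 143 and 159.6 CPM.

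The mitochondrial calls were all rises. mt-Co1 had 2565, 2671 and 2755 CPM in transitional and 3935, 3688 and 4038 CPM in follicular WT cells, without overlap (log2 difference 0.55 ± 0.06, edgeR adjusted p = 3.21e-05). mt-Nd6, on the light strand, had 136, 132 and 145 CPM against 243, 209 and 253 CPM, also without overlap (0.78 ± 0.10, edgeR adjusted p = 0.00013). mt-Nd2 (0.70), mt-Nd1 (0.63), mt-Nd5 (0.62), mt-Nd4 (0.54), mt-Atp8 (0.40) and mt-Cytb (0.38, overlapping) were called too, the last 2 losing the call in 2 and 3 of 12 cases with a library left out. Every such loss came from leaving out a WT library, while the 12 cases also include the Sh3gl1-/- libraries of the same fit.

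In Sh3gl1-/- mice 9 mitochondrial genes were called higher and 0 lower, with a median of 0.46, and 11 with the copies added, with a median of 0.38. Nuclear members had 3 called higher (Ndufs3 0.28, Ndufs7 0.35 and Uqcrh 0.35, its call lost in 8 of 12 cases with a library left out; 3.7% of all genes) and 1 lower (Ndufa10 -0.57; 6.71%, and 10.4% in either direction). Without overlap 25 nuclear members were higher (14.7%) and 12 lower (15.7%). Libraries of the same number deviated together across these 2 states; with the replicate number as a block within each genotype the Sh3gl1-/- count rose from 13 to 20 members, 5 nuclear higher, 5 nuclear lower and 10 mitochondrial higher. It was 6 without any of Sh3gl1-/- transitional replicate 1, transitional replicate 2 or follicular replicate 3. Atp5a1 was at 434, 475 and 436 CPM in transitional and 448, 451.6 and 426 CPM in follicular Sh3gl1-/- cells. The list of the tricarboxylic acid cycle had 0 of 18 called. In the test of the difference between genotypes 0 of those 18 genes were called, with 8 at an unadjusted p under 0.05 (edgeR). The difference between genotypes was called for no member (0; 0.0686% of all genes, edgeR, 0.048% higher and 0.0206% lower), with 14 nuclear and 2 mitochondrial genes at an unadjusted p under 0.05 and 4 nuclear members called by DESeq2. The follicular libraries serve in this comparison and in the CD40L comparison alike, so high follicular values of mitochondrial genes enter both.

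**Figure D5:**
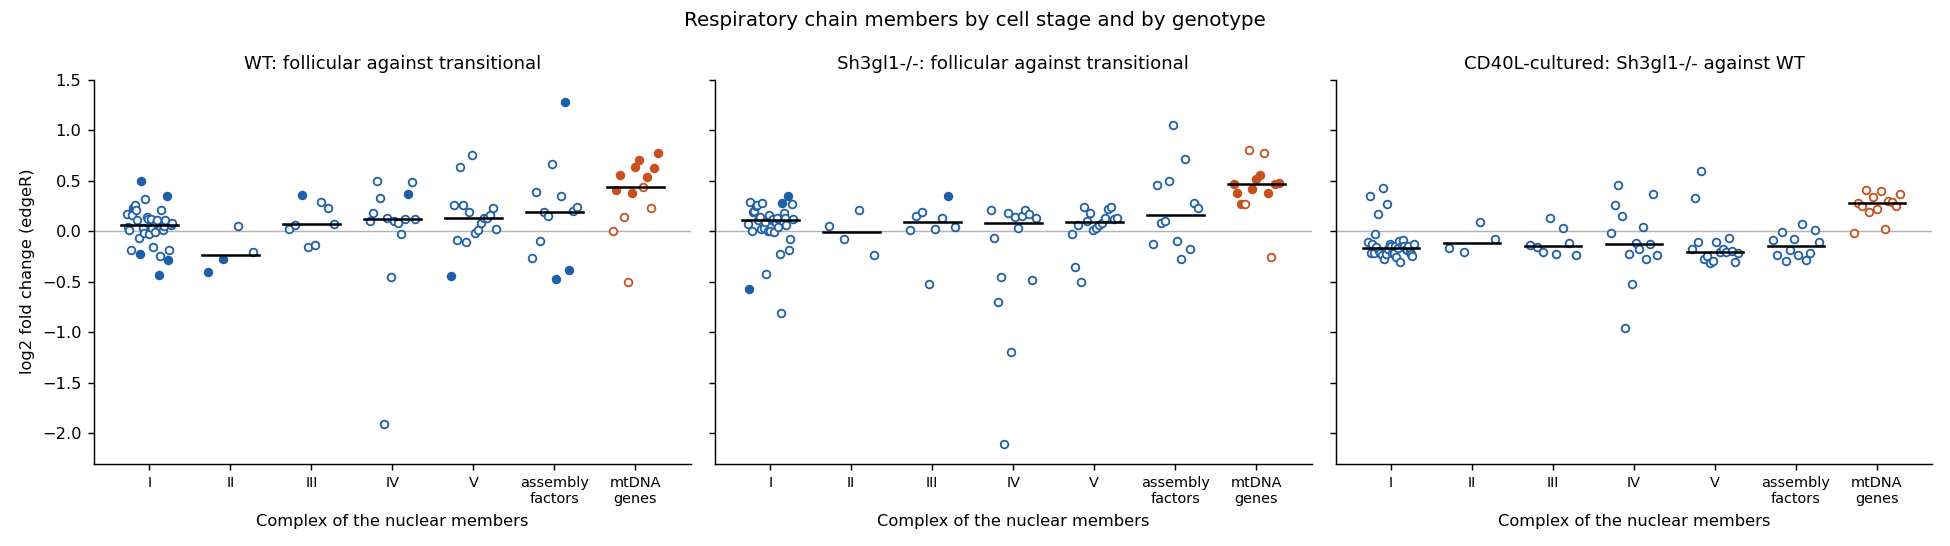
log2 fold change (edgeR) of tested members by complex for follicular against transitional cells in WT (left) and Sh3gl1-/- mice (middle), and for Sh3gl1-/- against WT CD40L-cultured cells (right). Filled points were called at an adjusted p under 0.05, open points were not, and black lines are medians; the mitochondrial (mtDNA) medians are 0.44, 0.46 and 0.28.

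Within a state, genotype changed few members. In transitional cells 0 of 89 nuclear members were called (edgeR; 15 at an unadjusted p under 0.05, 10 by DESeq2), while 2 mitochondrial genes were called higher in Sh3gl1-/- cells, where 1.26% of all genes were (2.48% lower, 3.73% in either direction). mt-Nd6 had 136, 132 and 145 CPM in WT and 182, 181 and 197 CPM in Sh3gl1-/- cells, a log2 difference of 0.44 ± 0.08 (SE, n = 3, edgeR adjusted p = 0.0287). mt-Co1 had 2565, 2671 and 2755 CPM against 3171, 3339 and 3449 CPM, a difference of 0.32 ± 0.07 (edgeR adjusted p = 0.0365). The groups did not overlap for either gene, and 7 of 13 mitochondrial genes were higher without overlap (13.6% of all genes), with a median of 0.29 (0.28 with the copies added, all 13 then positive). Of the nuclear members 12 were higher and 16 lower without overlap (14.4% of all genes lower).

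The 2 transitional calls were at 0.44 and 0.34 with the copies added. Leaving out a single library ended the call of mt-Co1 in 5 of 6 cases (all but WT replicate 1) and that of mt-Nd6 in 4 of 6 (all but WT replicate 3 and Sh3gl1-/- replicate 2): 0 members were called without WT replicate 2, Sh3gl1-/- replicate 1 or Sh3gl1-/- replicate 3, and 1 without WT replicate 1 or Sh3gl1-/- replicate 2. The sums of erythroid and of plasma cell markers given above were also higher in all 3 Sh3gl1-/- than in all 3 WT transitional libraries. So were the sums of T cell markers (31.8 to 51.8 against 54.6 to 82.0 CPM) and of neutrophil markers (50.8 to 91.6 against 109 to 548 CPM). The 3 transitional B cell markers summed lower without overlap, 872 to 1008 CPM in WT against 505 to 801 CPM. Cd93 among them was not lower (64.9, 72.2 and 57.4 against 82.8, 85.6 and 57.8 CPM). The part of all these markers in the difference was not tested. The nuclear share of TPM was lower without overlap in Sh3gl1-/- transitional cells, 1.82, 1.87 and 1.79% against 1.88, 1.897 and 1.92%. By share of counts the groups overlapped, with means of 1.043% in Sh3gl1-/- and 1.058% in WT transitional libraries. The median log2 difference of the nuclear members was 0.01.

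In follicular cells mt-Co3 was the only member called (0.845% of all genes, 0.485% higher and 0.36% lower), at 1.01 ± 0.16 (edgeR adjusted p = 0.0182). The gene alone was counted at 426, 318 and 329 CPM in WT and 884, 539 and 744 CPM in Sh3gl1-/- cells. With the chromosome 1 copy added, mt-Co3 had 2923, 2827 and 3288 CPM against 3149, 3202 and 3782 CPM, overlapping, with a difference of 0.16 ± 0.08 (edgeR adjusted p = 0.497), so the call concerned the split between gene and copy. The nuclear members had 0 of 88 called (edgeR; 8 at an unadjusted p under 0.05, 1 by DESeq2), and 5 higher and 3 lower without overlap, where 8.07 and 7.98% of all genes were. As deposited it was lost without WT replicate 2, Sh3gl1-/- replicate 1 or Sh3gl1-/- replicate 3 (0 members called), and without WT replicate 3, where 3 other members were called. Without overlap, T cell markers were higher in Sh3gl1-/- follicular libraries (46.1 to 67.3 CPM in WT against 96.9 to 123.6), as were plasma cell markers (64.0 to 128 against 143 to 177), while B cell markers were lower (11935 to 12499 against 10698 to 11440). The transitional B cell markers also summed lower (374 to 459 against 299 to 313), though Cd93 among them was higher. The part of these markers was not tested.

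After CD40L culture no member was called between genotypes (0; 0.0227% of all genes, edgeR), with 3 nuclear and 0 mitochondrial genes at an unadjusted p under 0.05 and 0 called by DESeq2. Nuclear members leaned lower in Sh3gl1-/- cells: 73 of 90 had a negative difference, the median was -0.16 against 0.01 over all genes, and 30 were lower without overlap, where 7.62% of all genes were. Without Sh3gl1-/- replicate 3 the median was -0.10. In complex I these were 17 of 35. Atp5g1, at 376, 369.8 and 425 CPM in WT and 325, 307 and 289 CPM in Sh3gl1-/- cells, was among them with a difference of -0.32 ± 0.12 (edgeR adjusted p = 0.663). The mitochondrial ribosomal proteins leaned alike, with 68 of 78 negative, 29 without overlap and a median of -0.17. Mitochondrial genes leaned higher, 12 of 13 with a median of 0.28 and 0 without overlap (6.21% of all genes higher), and 13 of 13 with the copies added, again with a median of 0.28. Marker sums also separated the genotypes in cultured cells: B cell markers at 9196 to 9553 CPM in WT against 8303 to 8865, T cell markers at 6.55 to 10.3 against 12.4 to 16.4 and neutrophil markers at 8.81 to 39.7 against 50.8 to 187 CPM. Their part in these differences was not tested.

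Genes around the chain were followed in lists taken from the known pathway, to be read against the 23.6% of all genes called higher and 25.7% called lower with CD40L in WT cells. In WT cells with CD40L, 19 of 39 further assembly factors were called higher and 4 lower, among them Uqcc2 of complex III (1.36) and Tmem126a of complex I (0.82), while Surf1 (-0.40) and Cox11 (-0.60), both of complex IV, were lower. Of 8 chain proteins outside the families 5 were called higher and 2 lower: Etfb (1.11) and Etfa (1.03) carry electrons from fatty acid oxidation and rose, and Gpd2 (-1.23) and Sqor (-4.50), which feed electrons to coenzyme Q from glycerol phosphate and sulfide, fell. Coenzyme Q synthesis had 5 higher and 2 lower of 13, with Coq3 (1.06) and Coq7 (0.91) against Coq2 (-0.71) and Coq10a (-0.67).

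The tricarboxylic acid cycle had 13 of 18 called higher and 0 lower, with Idh3a at 1.20 and Dld at 0.93. Factors that process mitochondrial RNA had 11 of 20 called higher and 0 lower, among them Slirp (1.16) and Lrpprc (0.83), partners that stabilise mitochondrial messages. Of the 21 genes of mitochondrial DNA maintenance and transcription 4 were higher and 6 lower, shares near those over all genes: Top1mt (1.23), the mitochondrial topoisomerase, and Mgme1 (0.78), a nuclease of its replication, rose, and Tk2 (-2.62) and Rrm2b (-1.15), which supply nucleotides for mitochondrial DNA in resting cells, fell. Of 10 regulators of nuclear mitochondrial genes 3 were higher and 3 lower, with Myc (1.09) and Gabpb1 (0.84) against Ppargc1b (-1.03) and Gabpb2 (-0.69).

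In Sh3gl1-/- cells, where 20.6% of all genes were called higher and 21.8% lower, the same lists had 16 higher and 2 lower of 39 (assembly factors), 5 and 2 of 8 (chain proteins outside the families), 6 and 2 of 13 (coenzyme Q), 3 and 5 of 21 (mitochondrial DNA), 8 and 0 of 20 (RNA processing), 10 and 0 of 18 (tricarboxylic acid cycle) and 1 and 4 of 10 (regulators). The difference of the responses was called for none of these genes (0, edgeR). Among them 17 of 18 genes of the tricarboxylic acid cycle had the smaller response in Sh3gl1-/- cells, with a median difference of -0.22.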

How the data were processed

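Expected counts (RSEM) and TPM per gene for 18 libraries, with no replicates pooled, were used as deposited; the FPKM values the authors deposited beside them were not used. By the submitters' processing notes, the authors used cutadapt 1.9.1, STAR 2.5.2a, RSEM 1.3.0 and GRCm38, and the labels name stranded poly(A) libraries; the study's methods name another kit and aligner, so which applies is not settled here. How reads that fit several places were shared, and the annotation release, are not given in the sources used here. The deposited expected counts were rounded to whole numbers, and a TPM value is relative to length and library, so a rise in some genes lowers the share of others. All 54 columns matched a library. Symbols came from GENCODE M21, which held 51633 of the 51912 genes.

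Totals of 12404665 to 18366011 counts set the precision. Genes passing filterByExpr were tested with edgeR 4.0.16 (R 4.3.3, quasi-likelihood, TMM), 3 mice a group, each pair of states in 1 fit of both genotypes and each genotype comparison on its own; adjusted p is Benjamini-Hochberg over all genes tested and a call is below 0.05. SE is the size of the log2 fold change over the square root of F. CPM used TMM factors over all 18 libraries. The members, gene lists and the rule for named genes (mitochondrial genes; the 5 nuclear members per direction of lowest adjusted p without overlap; the highest of each complex; isoforms; cofactor subunits; members called between genotypes; 2 genes per direction of each other list) were chosen with earlier results of these data known. The scripts' tests were tried on simulated data.

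Alternatives were DESeq2 1.42.0, limma-voom (limma 3.58.1), other scalings, filters and fits, a replicate block and each library left out. Chosen after seeing the data were the addition of pseudogene copies (same sense, at least 95% identity over at least 150 bases), a block within genotype and the order of libraries set against Cox8a. The labels number replicates 1 to 3 and call them littermates. Deviations from group means correlated between same-numbered transitional and follicular libraries (0.10 to 0.26, all pairs over 0.1) and between WT follicular and cultured libraries (0.14 to 0.22), not across genotypes; in Sh3gl1-/- mice follicular and cultured libraries gave 0.03 to 0.12. No libraries were duplicates.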

Additional observations from a re-analysis of the deposited data

Results flagged for a closer look

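For 5 members all 3 mice lay on one side in a contrast in one setting and on the opposite side in another. With 3 mice a group, single libraries were not tested as outliers. In each contrast named here 6.21 to 20.9% of all genes lay higher, or lower, without overlap. How many of all genes switched sides in this way was not counted, so the 5 cannot be set against such a share. Atp5f1, a stalk subunit of ATP synthase, was lower in follicular than in transitional cells in WT mice (log2 -0.11) and higher in Sh3gl1-/- mice (0.10); the difference was tested (0.21 ± 0.09, edgeR adjusted p = 0.339). Cox5b was higher in Sh3gl1-/- than in WT transitional cells (0.57) and lower in follicular cells (-0.61); the difference was -1.20 ± 0.33 (edgeR adjusted p = 0.155). Ndufaf5, an assembly factor of complex I, was higher in Sh3gl1-/- follicular cells (0.16) and lower in Sh3gl1-/- cultured cells (-0.18); the difference was -0.37 ± 0.20 (edgeR adjusted p = 0.618). Ndufv3, of the NADH-binding arm of complex I, stood at 0.042 in transitional and -0.12 in cultured cells, and Atp5mpl, a small subunit of ATP synthase, at 0.15 and -0.30; these 2 differences were not tested. No tested difference passed the threshold.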

How the results depend on the processing

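With CD40L, 84 members were called in WT (69 to 87 under the alternatives) and 69 in Sh3gl1-/- cells (68 to 73). Of the named results with a call, 2031 of 2184 alternative values kept direction and call, 152 lost the call and 1 reversed: mt-Co3 in the WT response was -0.40 with copies added. For comparisons of states these values include fits that left out a library of the genotype not compared. The nuclear median of the WT response, 0.72, was 0.76 with DESeq2 and with RLE factors, 0.57 with library size only (where the median of all genes was -0.22), 0.67 with at least 10 counts in every library and 0.66 to 0.76 with a library left out. In Sh3gl1-/- cells it was 0.47 to 0.58 with a library left out. The log2 nuclear to mitochondrial ratio rose by 1.25 in WT, and by 1.08 as a median over members of log2(TPM + 1). For the difference between genotypes in the response, testing all genes with at least 1 count gave 4 calls in place of 0, library size only gave a nuclear median of -0.12, and leaving out a library gave -0.27 to -0.15 (nuclear) and -0.035 to 0.33 (mitochondrial). The genotype median of nuclear members in cultured cells, -0.16, was -0.11 with library size only and -0.21 to -0.10 with a library left out.

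For follicular against transitional cells, the WT count of 23 was 15 in a fit of all 18 libraries and 14 to 22 with a library left out, and the mitochondrial median was 0.29 to 0.59. The Sh3gl1-/- count of 13 was 20 with DESeq2, 24 with all genes, 3 in the fit of 18 libraries and 6 to 16 with a library left out, with a nuclear median of 0.053 to 0.16. The count for the difference was 4 with DESeq2 and 9 with all genes in place of 0, with nuclear medians of -0.018 to 0.11 and mitochondrial medians of -0.19 to 0.041. Between genotypes in transitional cells 2 calls became 15 with DESeq2, 15 with all genes, 0 in the fit of 18 libraries and 0 to 2 with a library left out. In follicular cells 1 call became 3 with DESeq2, 8 with all genes, 2 with at least 10 counts, 0 in the fit of 18 libraries, 0 with copies added and 0 to 3 with a library left out, with a nuclear median of -0.019 to 0.10.

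With the replicate number as a block within each genotype, the Sh3gl1-/- count of follicular against transitional calls was 20. A replicate block across genotypes, where libraries share only a number, gave 0 calls in transitional and 3 in follicular cells between genotypes; neither form of block moved another count of calls by over 1.5 times. The causes of these shifts were not tested. With 3 mice a group, the genotype counts of 2 in transitional and 1 in follicular cells rest on single libraries. The count of 0 in cultured cells stayed at 0 with each library left out. Depth limits genes of a few CPM such as Cox6b2 and Sdhaf1.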
